A study of Mus musculus with 12 samples.

Results

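C10 cells kept in beta estradiol for 48 h were compared with C10 cells kept in it for 3 h, the last and the first time point of an induced time course. The comparison used 4 of the 12 arrays of the series, 2 at each time, chosen by cell line, agent and hours as their titles give them, and both sides carried estradiol, so that no array of vehicle-treated cells formed part of it. C10 is a mouse cell line that holds C/EBPa in an inducible form, and the title of the series describes a B cell line reprogrammed into macrophages. The other arrays were 2 each of C10 with ethanol as vehicle, of C10 after 12 h and after 24 h of beta estradiol, and of HAFTL, the fetal liver line transformed with Ha-ras that the design names as control, given beta estradiol. C10 is 1 line, the promoter that drives its inducible C/EBPa is not stated in the labels, and whether duplicates are separate cultures is not stated. The p-values below therefore reflect the spread between the samples at hand, and that spread may be technical.

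C/EBPa is a leucine zipper transcription factor that drives the myeloid branch of blood formation, where it acts with the ETS factor PU.1 (Spi1) on genes for growth factor receptors, granule enzymes and phagocytic receptors. When fused to the hormone-binding domain of an oestrogen receptor such a factor stays inactive in the cytoplasm until estradiol is added. C/EBPa is also known to slow cell division, and macrophages differ from precursor B cells in carrying large lysosomal, phagocytic and innate immune gene programmes.

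All genes with a probe set of their own were considered, and 11696 of 18193 passed a filter on dim signals, which asked for a signal above 74.6, the median of all values, in at least 2 of the 12 arrays. Signals are array brightness after quantile normalisation, on a linear scale with a floor of 16. Changes are log2 differences, 48 h minus 3 h, with the standard error of a limma fit. Over the genes tested, duplicates had a Pearson correlation across genes of 0.977 at 3 h and 0.976 at 48 h, and their median SD was 0.14 on the log2 scale. The 5' to 3' signal ratio of Actb, a sign of RNA integrity, was 0.784 and 0.746 at 3 h and 0.802 and 0.792 at 48 h. The second 3 h array stood apart in the 18S ribosomal RNA control, with a signal of 5929 against 605 in the other 3 h array and 773 and 328 at 48 h. Without that array 3161 genes were called higher and 3622 lower, against the 3359 and 4046 given below. The mean log2 signal of the poly-A spike-in controls differed by 0.99 between the 48 h arrays.

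Over this span of estradiol, 7405 of the 11696 genes tested (63.3%) differed at adjusted p below 0.05. Of the genes tested, 3359 (28.7%) were higher at 48 h and 4046 (34.6%) were lower. Among the genes called, 1916 rose and 2187 fell by at least 2-fold, while 395 rose and 334 fell by at least 8-fold. The median change over all genes tested was -0.08. Because most genes moved, each gene list count below is to be read against these shares, and a list share near 28.7% higher or 34.6% lower is no more than that of all genes. The largest rises were in genes of macrophages and of the interferon response, and the largest falls were in genes of mitosis and DNA replication, some of which are named below. With scaling to the spike-in controls in place of quantile normalisation, 1569 of 12008 genes tested were called higher and 2290 lower, and 3710 of these calls were shared by both. List counts given below with spike-in scaling are to be read against these numbers instead of the shares above. Some changes named below did not pass with spike-in scaling. They include those of Blnk, Canx, Ccng2, Cox4i1, Cxcl1, Dnmt3a, Egr1, Egr2, Erap1, Fabp5 and Gfi1. Also included are those of Hdac5, Ireb2, Itgav, Kdm6b, Max, Myo5a, Scd2, Srebf1, Syk and Vcl. For the genes listed here the adjusted p ranged from 0.052 (Gfi1) to 0.93 (Cox4i1), and the list is not complete.

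**Figure D1:**
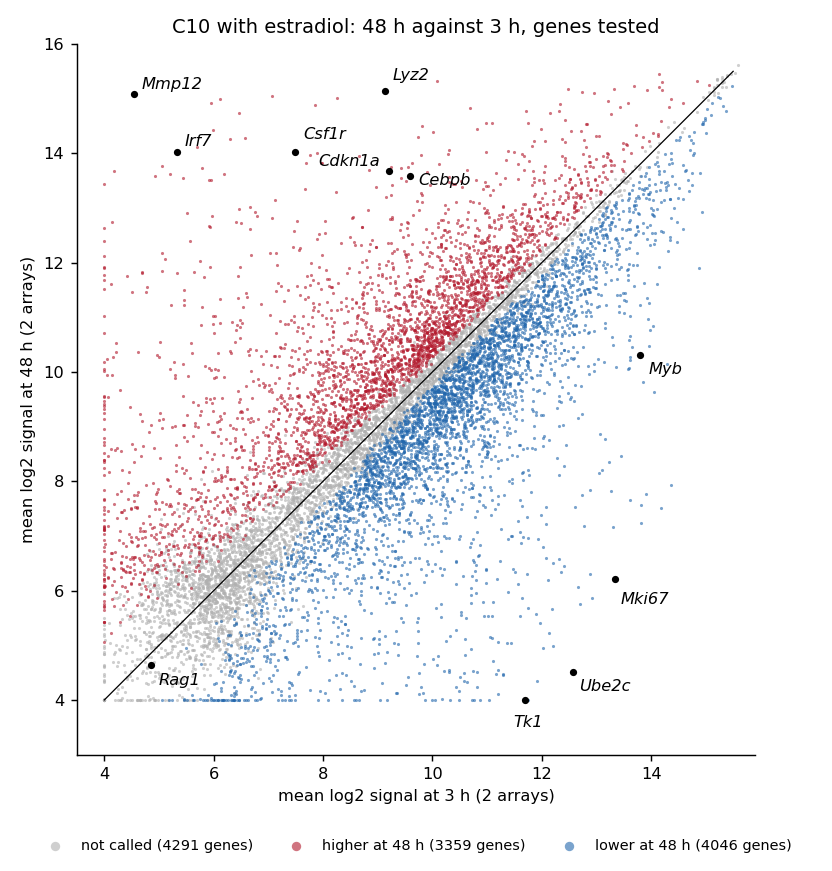
Mean log2 signal of each of the 11696 genes tested at 3 h (x axis) and at 48 h (y axis), each the mean of 2 arrays; red points were called higher at 48 h (3359), blue points lower (4046), grey points neither (4291), and the line marks equal signal. Mmp12, Irf7 and Csf1r lie far above the line, Ube2c, Tk1 and Mki67 far below it, and Rag1 close to it near the floor.

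Macrophage genes rose nearly as a block. Of 36 macrophage markers tested, 32 (88.9%, against 28.7% of all genes) were higher at 48 h, 1 was lower and 3 were not called. With spike-in scaling 30 of the 36 were called higher. Their median change was 4.39, or 4.09 with dim genes at their bound. Mmp12, the macrophage metalloelastase, had signals of 16 and 33.6 at 3 h and of 34319 and 35091 at 48 h. Both 3 h arrays were under the filter level and both 48 h arrays were far above it, a rise of at least 465-fold (adjusted p = 9.1e-08). Where a gene was dim in both arrays of a group, as here, the fold is that of the brighter mean over the filter level.

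The receptor for macrophage colony-stimulating factor, Csf1r, on which macrophage survival depends, had signals of 212 and 151 at 3 h and of 15599 and 17627 at 48 h. The pairs were far apart, with a change of 6.54 ± 0.16 (adjusted p = 4.5e-08). Lyz2, the lysozyme of phagocytes, was already well above the filter level at 3 h, at 555 and 561, and reached 36647 and 35696 at 48 h, a change of 6.02 ± 0.14 (adjusted p = 3.3e-08). Tyrobp, the adaptor through which many activating myeloid receptors signal, went from 68.6 and 55.6 to 30028 and 31701, at least 413-fold higher. Itgam, the integrin chain CD11b, had signals of 30.5 and 16 at 3 h, was at the floor of 16 in both 12 h arrays, stood at 262 and 164 at 24 h and reached 645 and 675 at 48 h, at least 8.84-fold higher.

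The exceptions among macrophage markers were few. Adgre1, which encodes the F4/80 antigen, had signals of 126 and 109 at 3 h and of 160 and 139 at 48 h, a change of 0.34 ± 0.42 that did not pass the test (adjusted p = 0.51), though it passed with a floor of 64 (adjusted p = 0.042). Trem2, a lipid-sensing receptor, had a change of -0.91 ± 0.87 and Gpnmb one of 0.11 ± 0.94, and neither passed. Without the first 48 h array the change of Trem2 was -2.21. The highest Gpnmb signal in the 4 arrays was 72.9, under the filter level, so its change compares dim signals only. Mrc1, the mannose receptor of alternatively activated and tissue macrophages, was the single marker that fell, from 226 and 212 to 72.2 and 120, by 1.23 ± 0.26 on the log2 scale (adjusted p = 0.0034). One of its 48 h arrays was under the filter level, so the size of this fall is uncertain. Marco, Chil3, Mertk and Cd163 did not pass the filter.

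Effector genes of phagocytosis were higher too, in a list that shares Fcgr1, Fcgr3, Fcer1g, C3ar1, C5ar1 and Itgam with the macrophage markers. All 17 members tested of the list of phagocyte oxidase, Fc receptor and complement genes were higher at 48 h, with a median of 3.53, or 2.67 with dim genes at their bound. Fcgr1, the high-affinity IgG receptor, went from 73.0 and 72.8 to 12692 and 12589 (at least 169-fold higher), and Fcgr3 from 28.8 and 38.2 to 14024 and 13735 (at least 186-fold). C3ar1, the receptor for the complement fragment C3a, went from 16 and 20.3 to 12475 and 13607, at least 175-fold higher. The 3 other members on the array, C1qa, C1qb and C1qc, which form complement C1q, were under the filter. Lysosomal genes rose less steeply, with 30 of 32 tested (93.8%) called higher, 2 not called (Ctsk and Gaa) and a median of 1.52. Scaling to the spike-in controls called 19 of the 32. Ctsd, the aspartic protease cathepsin D, went from 1505 and 1655 to 13159 and 13271, a change of 3.07 ± 0.08, and Psap, the precursor of the saposins that help degrade sphingolipids, from 2349 and 2033 to 24748 and 23453, a change of 3.46 ± 0.10.

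Genes of lipid export and storage were also higher, 15 of 18 tested, or 9 with spike-in scaling (83.3% against 28.7% of all genes). Apoc2, an apolipoprotein that activates lipoprotein lipase, went from 73.3 and 50.2 to 11260 and 11996, at least 156-fold higher. Abca1, the cholesterol exporter, went from 37.8 and 51.2 to 2456 and 2629, at least 34.0-fold higher, and Plin2, which coats lipid droplets, from 1246 and 1236 to 16315 and 16004, a change of 3.70 ± 0.07. Members that fell were Dgat2, an enzyme of triglyceride synthesis (-2.38 ± 0.33), and Fabp5, a fatty acid carrier (-0.71 ± 0.08).

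Granulocyte genes gave a mixed picture. Of 10 tested, 7 (70%) were higher, 1 was lower and 2 were not called, and 7 more, among them Elane, Ctsg and S100a9, did not pass the filter. The median change of the 10 tested was 3.68. Hp went from 299 and 158 to 15981 in both arrays (6.20 ± 0.49), and Mmp8 from 507 and 419 to 12881 and 13687 (4.85 ± 0.10). S100a8, a calcium-binding protein of neutrophils and monocytes, went from 60.6 and 60.5 to 5865 and 7268, at least 87.5-fold higher. Camp, the cathelicidin antimicrobial peptide, was brighter at 24 h, at 8451 and 7538, than at 48 h, at 2624 and 2561, and was at least 34.7-fold higher at 48 h than at 3 h. Mpo, the myeloperoxidase of primary granules, had signals of 38.3 and 32.6 at 3 h and of 77.5 and 89.1 at 48 h, a difference that did not pass (adjusted p = 0.21) but did in a fit of the 4 arrays alone (adjusted p = 0.0038). Ngp, a neutrophil granule protein, was at least 1.13-fold lower at 48 h.

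**Figure D2:**
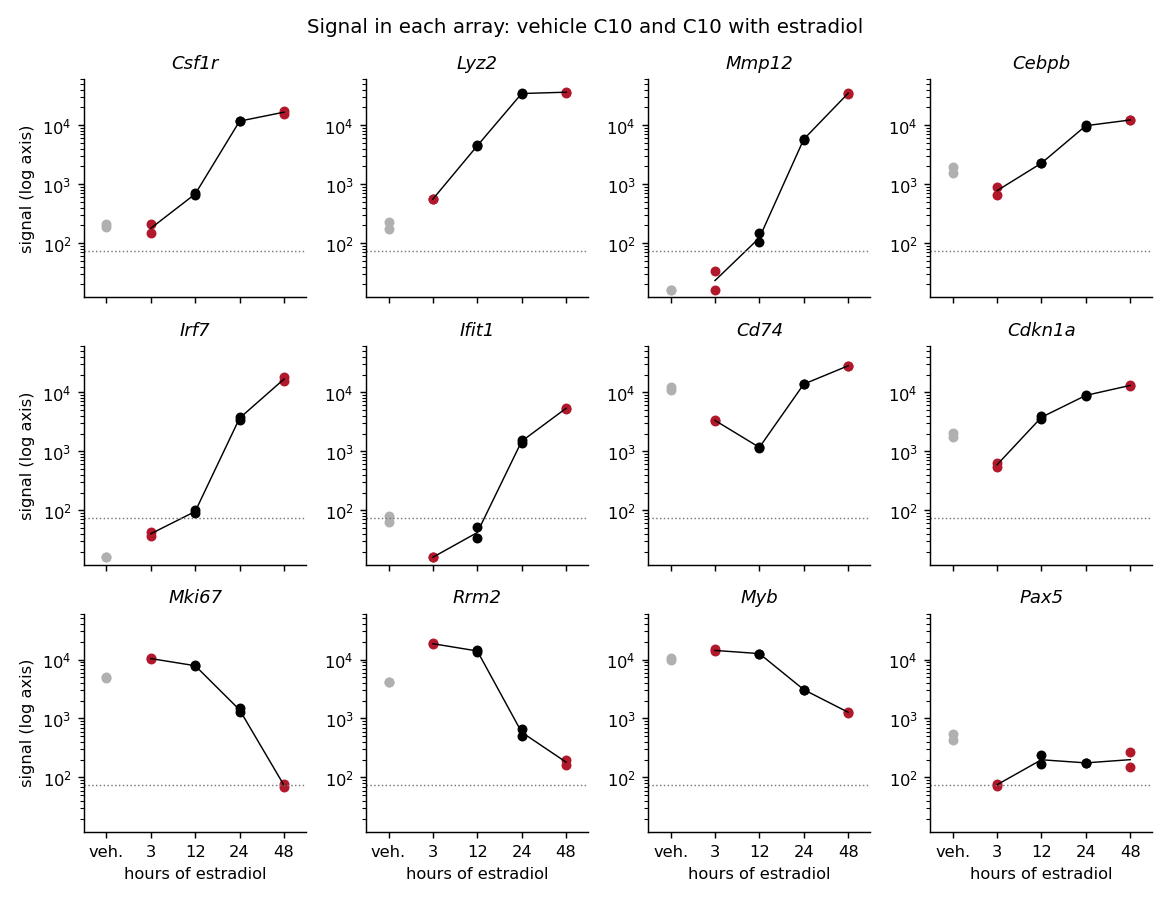
Signal of 12 genes in every C10 array, on a log axis, against hours of estradiol (times evenly spaced, not to scale; "veh." is vehicle C10); red points are the 3 h and 48 h arrays compared, the line joins group means, and the dotted line is the filter level of 74.6. Csf1r, Lyz2 and Mmp12 climb by over 6 on the log2 scale from 3 h to 48 h, Mki67 and Rrm2 fall by over 6, and Pax5 stays below its vehicle signals of 426 and 556.

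Among transcription factors of the myeloid lineage, 15 of 25 tested (60%) were higher at 48 h, 5 (20%) were lower and 5 were not called, with a median of 1.46, or 1.26 with dim genes at their bound. Other genes of the C/EBP family were among them. Cebpd had signals of 116 and 88.9 at 3 h and of 8303 and 8272 at 48 h, a change of 6.35 ± 0.17 (adjusted p = 6.2e-08). Cebpb went from 661 and 910 to 12072 and 12401, a change of 3.98 ± 0.16 (adjusted p = 4.3e-07). In both genes every 48 h array lay above every 3 h array. Cebpa itself was not above the filter level in any array: its highest signal was 34.6, and 10 of 12 arrays were at the floor. Where its probe set lies relative to the inducible construct is not given in the sources used here, so it does not check the induction.

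Spi1, which encodes PU.1, moved far less than the C/EBP genes. Its signals were 2889 and 2782 at 3 h and 5274 and 5580 at 48 h, a change of 0.94 ± 0.09 (adjusted p = 4.4e-05). With spike-in scaling the change was 0.73 and did not pass (adjusted p = 0.23). At 12 h it already stood at 5622 and 5619. Members of AP-1, the dimeric factor of growth and stress responses, were higher: Jun went from 618 and 617 to 9390 and 12895 (4.16 ± 0.17) and Fosl2 from 71.0 and 52.0 to 3912 and 3825 (at least 51.8-fold higher). Tfec, a macrophage relative of MITF, went from 20.1 and 16 to 1296 and 1195, at least 16.7-fold higher. The members that fell were Egr1 (-0.89), Egr2 (-0.32), Egr3 (at least 3.88-fold lower), Nr4a1 (-2.03) and Gfi1 (-0.93), which include rapid-response genes of growth signalling. The call of Egr2 was lost without the first 3 h (-0.32), the second 3 h (-0.31) or the first 48 h array (-0.22).

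The B cell programme fell further from a point that was already low at 3 h. Of 31 B lineage genes tested, 19 (61.3%, against 34.6% of all genes) were lower at 48 h, 6 were higher and 6 were not called, with a median of -1.11. Vehicle C10 stood above the 3 h arrays by a median of 2.20 over the same genes. Cd24a, a surface glycoprotein of precursor B cells, had signals of 14898 and 14796 at 3 h and of 954 and 858 at 48 h, a change of -4.04 ± 0.07 (adjusted p = 1.7e-08). Ikzf3, the lymphoid zinc finger factor Aiolos, went from 317 and 321 to 16 and 21.1, at least 4.27-fold lower. Cr2, complement receptor 2, went from 491 and 491 to 36.1 and 16, at least 6.58-fold lower.

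Among the best known B cell regulators, Ebf1 fell, Pax5 was called higher, and Rag1 and Rag2 were not called. Pax5, the factor that holds B cell identity, had signals of 78.4 and 72.6 at 3 h, against 426 and 556 in vehicle C10, and of 149 and 270 at 48 h. It was called higher at 48 h, by 1.41 ± 0.29 (adjusted p = 0.0032), although both 48 h arrays stayed below both vehicle arrays and 1 of the 3 h arrays was under the filter level. Ebf1, its upstream partner, went from 2302 and 2498 to 1437 and 1534, a change of -0.69 ± 0.13 (adjusted p = 0.0018), and with spike-in scaling the change was -0.93 and did not pass (adjusted p = 0.12). Rag1, a subunit of the recombinase that joins immunoglobulin segments, had signals of 4927 and 4904 in vehicle C10 but of 30.8 and 26.9 at 3 h and 38.4 and 16 at 48 h, so it was already near the floor when the span began. Its change was -0.22 ± 0.33 (adjusted p = 0.61), and it was 0.42 without the second and -0.85 without the first 48 h array, both called. Rag2 was at the floor in all 4 arrays.

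Members of the B lineage list that rose included genes with known roles in myeloid cells too. Bst1, an ectoenzyme, went from 241 and 202 to 3542 and 3420 (3.98 ± 0.14). Its vehicle signals of 1645 and 1512 lay above the 3 h arrays, and its change from vehicle to 48 h was 1.14. Syk, the kinase that also serves Fc receptors, rose by 0.75 ± 0.07, Cd72 by 1.35 ± 0.09, the antigen receptor chain Cd79b by 1.98 ± 0.08, and the adaptor Blnk by 0.39 ± 0.14. The call of Blnk was lost without the first (0.39) or second (0.40) 3 h array or the second 48 h array (0.30). Transcription factors of the B lineage numbered 11 lower (64.7%), 4 higher (23.5%) and 2 not called of 17 tested, with a median of -1.12. Myb, which sustains immature blood cells, went from 14861 and 13669 to 1295 and 1253, a change of -3.48 ± 0.08 (adjusted p = 3.1e-08). Bcl6, a repressor used by germinal centre B cells and macrophages, went the other way, from 132 and 135 to 749 and 842 (2.57 ± 0.21).

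Genes of cell division fell together, with the lowest medians of all lists shown. All 39 mitosis and cytokinesis genes tested were lower at 48 h, with a median of -6.02, or -5.07 with dim genes at their bound. Of 38 DNA replication and G1/S genes tested, 37 were lower and 1 was not called, with a median of -3.82. Mki67, the Ki-67 proliferation marker, had signals of 10078 and 10659 at 3 h and of 69.6 and 78.0 at 48 h. The 48 h arrays sat at the filter level, and 1 was under it, so the fitted change of -7.14 ± 0.09 (adjusted p = 5.8e-09) is uncertain in size. Ube2c, the ubiquitin-conjugating enzyme of the anaphase-promoting complex, went from 6105 and 6124 to 32.3 and 16, at least 81.9-fold lower (adjusted p = 1.9e-07). Ccna2, cyclin A2, went from 8177 and 7272 to 57.9 and 58.6, at least 103-fold lower.

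Replication enzymes behaved alike with 1 exception. Rrm2, the small subunit of ribonucleotide reductase, which makes deoxynucleotides, went from 18681 and 18362 to 202 and 164, a change of -6.67 ± 0.14 (adjusted p = 3.0e-08). Mcm5, a subunit of the replicative helicase, went from 13943 and 15047 to 199 and 183 (-6.25 ± 0.08), and Tk1, thymidine kinase, from 3420 and 3167 to the floor of 16 in both arrays (at least 44.1-fold lower). Tyms, thymidylate synthase, was the gene not called, at 719 and 735 at 3 h and 682 and 761 at 48 h. All of the other 37 members fell by at least 2-fold. At 3 h these genes were brighter than in vehicle C10, which stood lower by a median of 1.52 on the log2 scale for replication genes and 1.56 for mitosis genes. Fewer dividing cells and less of these RNAs in each cell cannot be told apart in bulk samples.

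Promoters of the falling mitosis genes are shown for the motifs that are textbook features of this group, the CCAAT box and the cell cycle homology element (CHR, letters TTTGAA). The genes shown are those of largest change among list members whose window holds both motifs. That their windows hold matches therefore follows from the choice. The windows are the 250 bases before the gene start, from RefSeq on build GRCm38.p6, for Ube2c (chr2:164769679-164769928 on the plus strand) and Mki67 (chr7:135716380-135716629 on the minus strand), written 5' to 3' on the gene's strand, and capitals mark every match to CCAAT or TTTGAA on either strand.
Ube2c: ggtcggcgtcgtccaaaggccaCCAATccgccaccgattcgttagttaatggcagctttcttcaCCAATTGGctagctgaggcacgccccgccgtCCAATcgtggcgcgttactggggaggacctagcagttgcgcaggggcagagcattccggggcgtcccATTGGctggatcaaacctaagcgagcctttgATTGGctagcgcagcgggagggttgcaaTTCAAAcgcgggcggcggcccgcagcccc
Mki67: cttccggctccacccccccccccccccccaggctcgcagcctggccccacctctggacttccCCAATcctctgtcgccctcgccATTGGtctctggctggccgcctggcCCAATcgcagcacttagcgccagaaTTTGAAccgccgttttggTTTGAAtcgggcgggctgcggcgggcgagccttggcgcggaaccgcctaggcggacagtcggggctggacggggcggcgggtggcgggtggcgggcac
The Ube2c window holds 6 CCAAT matches, a pair of which overlap, and 1 TTTGAA match, and the Mki67 window holds 3 and 2. CCAAT occurred in 26 of 35 windows (74.3%) of the mitosis list, 21 of 37 (56.8%) of the replication list and 35.1% of 12115 windows of genes tested. TTTGAA occurred in 13 of 35 windows (37.1%) of mitosis genes, 4 of 37 (10.8%) of replication genes and 10.8% of windows of genes tested. An E2F-type motif, TTTGGCGC, occurred in 3 of 37 replication windows (8.11%), in none of the 35 mitosis windows and in 0.792% of windows of genes tested. Windows were found for 32 of 39 mitosis and 31 of 38 replication genes tested, some genes have more than 1 window, and a match is a description of the letters and not a bound site.

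In the list of cell cycle inhibitors and D cyclins more genes were higher than lower. Of 18 inhibitors, D cyclins and repressive E2F factors tested, 11 (61.1%, against 28.7% of all genes) were higher, 5 (27.8%, against 34.6%) were lower and 2 were not called. The D cyclins Ccnd1 (3.18) and Ccnd2 are among the 11 and are not inhibitors. Cdkn1a, the cyclin-dependent kinase inhibitor p21, had signals of 547 and 641 at 3 h and of 13455 and 12743 at 48 h, a change of 4.47 ± 0.12 (adjusted p = 5.4e-08). Btg2, an antiproliferative factor, went from 525 and 719 to 7533 and 7069 (3.57 ± 0.17), and Ccnd2, cyclin D2, from 196 and 195 to 1776 and 1818 (3.20 ± 0.08). Vehicle C10 stood above 3 h in each, at 1760 and 2075 for Cdkn1a, 3081 and 3695 for Btg2 and 831 and 770 for Ccnd2. Their changes from vehicle to 48 h were smaller, at 2.78, 1.11 and 1.17. The 5 that fell were the repressive E2F factors E2f7 (at least 18.5-fold lower) and E2f8 (-2.17), Cdkn2c (-2.83), Rbl1 (-1.90) and Ccng2 (-0.36), whose call was lost without the second 3 h (-0.35) or the second 48 h array (-0.35).

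Genes of ribosome production fell while Myc itself did not. Of 32 genes of the Myc and ribosome biogenesis list, 28 (87.5%) were lower, 3 were higher and Mxi1 was not called, with a median of -1.92. Dkc1, the pseudouridine synthase dyskerin, went from 4197 and 4118 to 510 and 384 (-3.23 ± 0.14), and Nolc1, a nucleolar chaperone, from 3684 and 3715 to 555 and 482 (-2.84 ± 0.10). Myc, the growth-promoting factor of the same list, had signals of 1258 and 1327 at 3 h and of 2374 and 2218 at 48 h, a change of 0.83 ± 0.07 (adjusted p = 2.5e-05). It stayed below its vehicle signals of 7676 and 7956, and with spike-in scaling its change was 0.63 and did not pass (adjusted p = 0.30). Mxd1, an antagonist of Myc, rose by 2.71 ± 0.17 and Max, their shared partner, by 0.90 ± 0.23, a call lost without the first 3 h (0.74) or the second 48 h array (0.60). Ribosomal proteins themselves changed little: 12 of 22 were lower, or 3 with spike-in scaling, and the median was -0.20, with Rpl12 (-2.09 ± 0.16), Rpl14 (-1.88 ± 0.09) and Rps6 (-1.48 ± 0.11) as the largest falls.

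**Figure D3:**
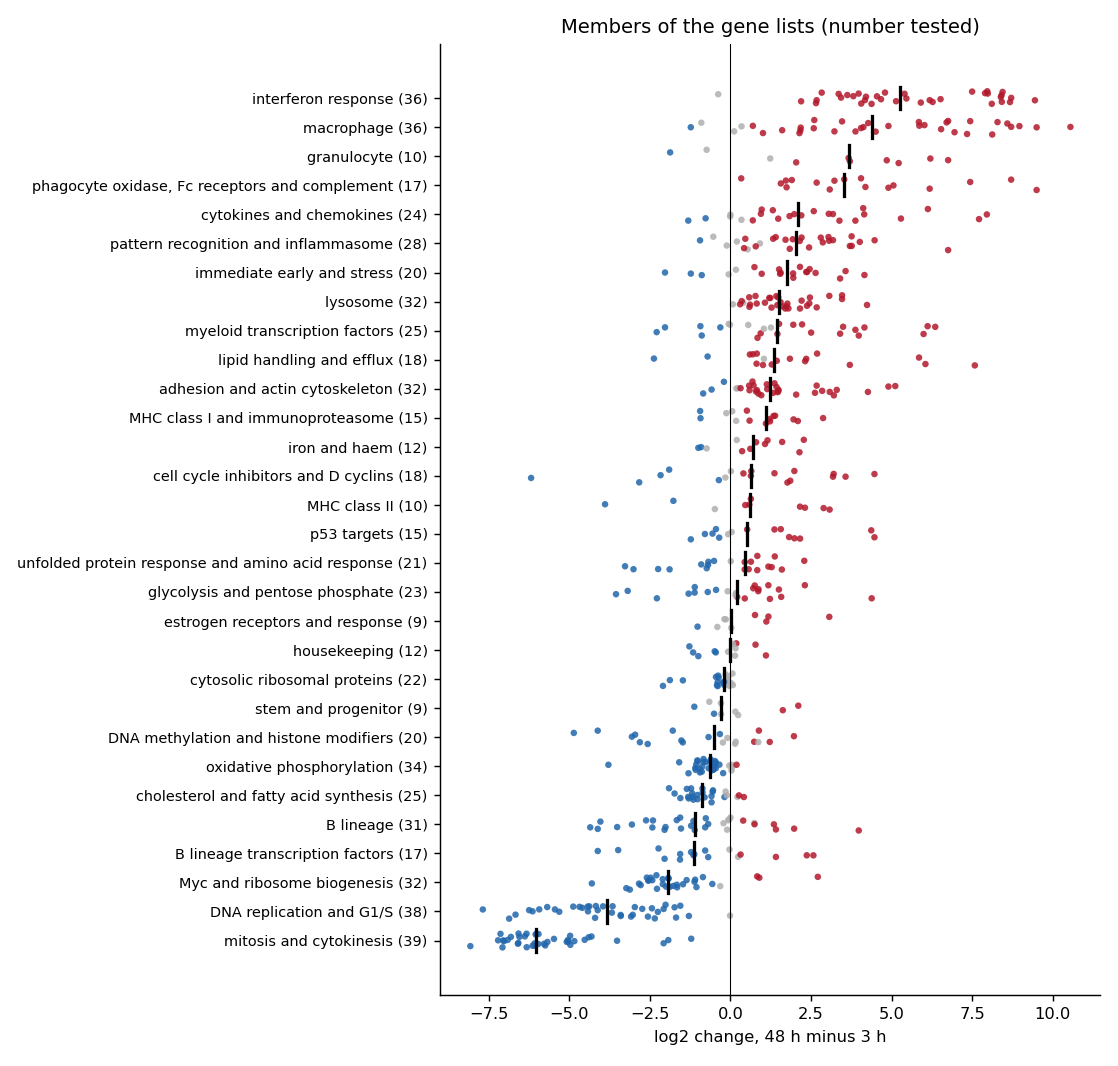
Log2 change, 48 h minus 3 h, of every tested member of the gene lists with at least 9 members tested (number in brackets); red points were called higher, blue lower, grey neither, and the black bar is the list's median. The interferon response and macrophage lists lie highest, with medians of 5.27 and 4.39, and the replication and mitosis lists lowest, with medians of -3.82 and -6.02.

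The interferon response had the highest median of all lists shown. Of 36 genes tested, 35 (97.2%) were higher at 48 h and 1, Ifi203 (-0.38 ± 0.30, or -0.82 and called without the first 48 h array), was not called, with a median of 5.27, or 5.06 with dim genes at their bound. Irf7, the factor that amplifies type I interferon production, had signals of 42.9 and 37.3 at 3 h and of 15434 and 18193 at 48 h. Both 3 h arrays were under the filter level, and the rise was at least 224-fold (adjusted p = 5.9e-07). Mx1, an antiviral GTPase, went from 57.3 and 16 to 11663 and 13092 (at least 166-fold higher), and Rtp4, an interferon-induced regulator, from the floor of 16 in both arrays to 11290 and 11035 (at least 150-fold). Ifitm3, a membrane protein that blocks virus entry, went from 70.8 and 56.3 to 21588 and 22338, at least 294-fold higher.

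Most of the list's change came after 12 h. The list's median stood 0.22 above its 3 h level at 12 h and 4.37 above it at 24 h. Ifit1, an RNA-binding effector, was at the floor of 16 in both 3 h arrays, at 51.5 and 34.2 at 12 h, at 1403 and 1567 at 24 h and at 5444 and 5278 at 48 h, at least 71.8-fold higher at 48 h than at 3 h. All 3 h and 12 h arrays lay under the filter level and all 24 h and 48 h arrays lay far above it.

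The promoters of Ifit1 (chr19:34640639-34640888 on the plus strand) and of its neighbour Ifit3 (chr19:34583279-34583528 on the plus strand) are shown. They are the 250 bases before each gene's start in RefSeq on GRCm38.p6, 5' to 3' on the gene's strand, with capitals at every match to GAAANNGAA, the repeat of the interferon-stimulated response element, on either strand. Both genes were chosen as the members of largest change whose window holds this motif, so its presence in them follows from the choice.
Ifit1: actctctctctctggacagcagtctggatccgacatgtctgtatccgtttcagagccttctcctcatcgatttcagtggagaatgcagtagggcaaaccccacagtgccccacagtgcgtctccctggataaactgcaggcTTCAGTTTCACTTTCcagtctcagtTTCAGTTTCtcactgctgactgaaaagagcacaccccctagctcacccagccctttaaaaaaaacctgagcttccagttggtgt
Ifit3: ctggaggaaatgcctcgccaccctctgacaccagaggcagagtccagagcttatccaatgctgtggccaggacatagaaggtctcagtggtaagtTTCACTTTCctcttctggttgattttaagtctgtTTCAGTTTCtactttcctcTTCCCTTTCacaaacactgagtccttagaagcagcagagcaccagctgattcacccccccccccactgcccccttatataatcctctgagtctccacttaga
Ifit3 went from 68.4 and 27.3 at 3 h to 11550 and 12314 at 48 h, at least 160-fold higher. Each window holds 3 matches, all on the opposite strand in these letters, and those of Ifit1 include an overlapping pair. The motif occurred in 13 of 32 windows (40.6%) of the interferon list, for the 27 of its 36 tested genes that had a window, and in 6% of windows of genes tested. It occurred in 1 of 35 mitosis windows.

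Antigen presentation split within the class II pathway. Cd74, the invariant chain, had signals of 3310 and 3374 at 3 h, dipped to 1136 and 1194 at 12 h and reached 28049 and 28322 at 48 h, a change of 3.08 ± 0.08 (adjusted p = 4.5e-08). The non-classical class II genes H2-DMa (2.89 ± 0.21) and H2-Ob (2.31 ± 0.12) rose too. The classical class II chains did not: H2-Aa went from 1123 and 1204 to 65.2 and 94.1 (-3.89 ± 0.28, 1 array at 48 h under the filter level), H2-Eb1 from 1389 and 1308 to 382 and 408 (-1.77 ± 0.11), and H2-Ab1 from 718 and 814 to 698 and 428, which did not pass (-0.48 ± 0.35, adjusted p = 0.26) except with the mean of its probe sets (-0.38, adjusted p = 0.040). In all, 7 of 10 class II pathway genes tested (70%) were higher and 2 (20%) were lower, and 4 of 9 tested were higher with spike-in scaling. The median of the class II list was 0.61 for 48 h minus 3 h. It was 0.997 for vehicle minus 3 h and -0.14 for 48 h minus vehicle, so the list as a whole did not end above vehicle C10. Alleles of these chains vary between mouse strains, and probes may detect related transcripts. In the class I pathway 10 of 15 (66.7%) were higher, or 4 with spike-in scaling, led by the peptide transporter Tap1, from 508 and 534 to 3672 and 3970 (2.87 ± 0.08), and by the class I transactivator Nlrc5 (2.09 ± 0.08). The peptidase Erap1 (-0.93 ± 0.09) and the chaperone Canx (-0.94 ± 0.07) fell.

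Inflammatory signals rose with them. Of 24 cytokine and chemokine genes tested, 19 (79.2%) were higher and 2, Il12b (at least 1.21-fold) and Cxcl1 (-0.77), were lower, with a median of 2.09, or 1.69 with dim genes at their bound. The call of Il12b was lost without any 1 of the 4 arrays (adjusted p from 0.054 to 0.16), and that of Cxcl1 without the first 3 h (-0.50), the first 48 h (-0.95) or the second 48 h array (-0.59). Ccl2, the monocyte-attracting chemokine, went from 56.0 and 54.0 to 14068 and 13208, at least 183-fold higher. Il1b, interleukin 1 beta, went from 386 and 427 to 16454 and 15295 (5.29 ± 0.16), and its natural antagonist Il1rn from 116 and 78.5 to 20196 and 19756 (7.71 ± 0.49). In the list of pattern recognition and inflammasome genes, which holds receptors, adaptors and NF-kB factors, 22 of 28 (78.6%) were higher and 1, the signalling inhibitor Irak3 (-0.94), was lower, with a median of 2.04. Cd14, the lipopolysaccharide co-receptor, went from 322 and 288 to 33513 and 32188 (6.75 ± 0.57). Tlr2 went from 1341 and 1187 to 17726 and 16550 (3.76 ± 0.18), and Tlr3 from 84.6 and 76.0 to 1208 and 1386 (4.01 ± 0.12).

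Immediate early genes stood higher at 48 h in 15 of 20 cases (75%), with 3 lower and a median of 1.75. Fos, a partner of Jun, went from 847 and 838 to 8984 and 8819 (3.40 ± 0.09), and Dusp5, a phosphatase that restrains ERK, from 423 and 525 to 3249 and 2661 (2.64 ± 0.17). The 3 that fell were Egr1, Nr4a1 and Gadd45a (-1.23). In the adhesion and actin list 27 of 32 (84.4%) were higher, or 16 with spike-in scaling, with a median of 1.23. Myo1f, a myosin of blood cells, went from 165 and 192 to 6050 and 6262 (5.11 ± 0.19), and Capg, an actin-capping protein of macrophages, from 867 and 922 to 8524 and 9064 (3.30 ± 0.09). Vcl (vinculin, -0.85), Myo5a (-0.59) and the integrin chain Itgav (-0.20) fell. The sign of Myo5a turned with the mean of its probe sets (0.09), and the call of Itgav was lost without the first 3 h (-0.19), the second 3 h (-0.22) or the first 48 h array (-0.18).

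Lists of metabolic genes had smaller medians. Of 25 genes of cholesterol and fatty acid synthesis, 20 (80%) were lower, or 12 with spike-in scaling, with a median of -0.87. Vehicle C10 was already below 3 h in these genes, with a median of -0.94 for vehicle minus 3 h. The median of 48 h minus vehicle was 0.13. Fdps, which makes farnesyl diphosphate, had signals of 4950 and 4585 at 3 h, rose to 6656 and 6562 at 12 h and ended at 1379 and 1485 (-1.74 ± 0.09). Srebf1, a master regulator of lipid synthesis (0.42 ± 0.09), and the desaturase Scd2 (0.26 ± 0.06) were higher. In oxidative phosphorylation 29 of 34 (85.3%) were lower, or 10 with spike-in scaling, with a median of -0.62. The largest fall was that of Cox6a2, a cytochrome c oxidase subunit known from muscle, from 772 and 702 to 100 and 28.3 (-3.79 ± 0.48), uncertain in size since 1 array at 48 h was under the filter level. Others were Atp5g1, from 6307 and 6249 to 2138 and 2029 (-1.59 ± 0.07), and Cyc1 (-1.09 ± 0.14). The fall of Atp5g1 was -0.59 and did not pass when its probe sets were averaged. Cox4i1 (0.19 ± 0.06) was the 1 member called higher, and it lost the call without the second 3 h (0.15), the first 48 h (0.21) or the second 48 h array (0.17).

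Of 23 genes of glycolysis and the pentose phosphate pathway tested, 12 (52.2%) were higher and 8 (34.8%, near the 34.6% of all genes) were lower, or 4 and 5 with spike-in scaling. Hk3, the hexokinase of myeloid cells, went from 94.9 and 89.0 to 1904 and 1927 (4.38 ± 0.32), and Pgd, of the pentose phosphate pathway that supplies NADPH, from 3414 and 3881 to 18238 and 17814 (2.31 ± 0.09). Pfkfb3, an activator of glycolysis, went from 2619 and 2435 to 270 and 172 (-3.55 ± 0.19), and the lactate transporter Slc16a1 from 12831 and 12800 to 1472 and 1342 (-3.19 ± 0.11). In the list of the unfolded protein and amino acid responses 11 of 21 (52.4%) rose and 9 (42.9%) fell, or 3 and 4 with spike-in scaling. Its 3 largest falls were in enzymes of serine and one-carbon metabolism. Shmt2 went from 9881 and 11224 to 1036 and 1147 (-3.27 ± 0.09), Psat1 from 13092 and 11712 to 1742 and 1358 (-3.01 ± 0.14) and Phgdh from 14764 and 15236 to 3428 and 2922 (-2.24 ± 0.08). The stress sensor Ern1 rose by 2.29 ± 0.08. Of 12 iron and haem genes, 8 (66.7%) were higher, or 3 with spike-in scaling, led by the biliverdin reductase Blvrb (2.28 ± 0.09), while the transferrin receptor Tfrc (-0.998 ± 0.08) and the iron regulator Ireb2 (-0.91) fell.

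Of 20 DNA methylation and histone modifier genes, 11 (55%) were lower and 4 (20%) were higher, with a median of -0.50; spike-in scaling tested 21 and called 9 and 1. Hells, a chromatin remodeller needed for DNA methylation, went from 4323 and 4356 to 140 and 160 (-4.86 ± 0.12), Uhrf1, which guides maintenance methylation, from 2173 and 2714 to 172 and 113 (-4.12 ± 0.23), and Hdac9 from 1930 and 2031 to 257 and 220 (-3.06 ± 0.11). Those that rose were Tet2, a methylcytosine dioxygenase, from 853 and 824 to 3410 and 3157 (1.97 ± 0.11), Hdac5 (1.22 ± 0.07), Kdm6b (0.88, or -0.03 with the mean of its probe sets) and Dnmt3a (0.74, or 0.10 likewise). Of 15 p53 targets 8 (53.3%) were higher and 5 (33.3%, near the 34.6% of all genes) were lower, the latter reduced to 1 with spike-in scaling. The median of the p53 list was 0.52 for 48 h minus 3 h, 0.97 for vehicle minus 3 h and 0.04 for 48 h minus vehicle. The death receptor Fas went from 83.7 and 85.2 to 1735 and 1751 (4.37 ± 0.30).

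The arrays at 12 h and 24 h placed the largest step of most of these changes between those times. Among genes called with at least 2-fold change, the step from 12 h to 24 h was the largest for 1085 of 1916 rises (56.6%) and 1243 of 2187 falls (56.8%). The step from 3 h to 12 h was the largest for 617 rises (32.2%) and 413 falls (18.9%), and the step from 24 h to 48 h for 214 rises (11.2%) and 531 falls (24.3%). The median rise had covered 29.7% of its span by 12 h and 83.9% by 24 h, and the median fall 23.8% and 72%. These counts are a description, since the intervals differ in length and share arrays with the comparison. By list, the macrophage median was 0.71 at 12 h and 2.70 at 24 h above 3 h, that of mitosis genes was -0.68 and -2.93, and that of replication genes was -0.40 and -3.19. Between 24 h and 48 h the replication median went from -3.19 to -3.82 and the mitosis median from -2.93 to -6.02.

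**Figure D4:**
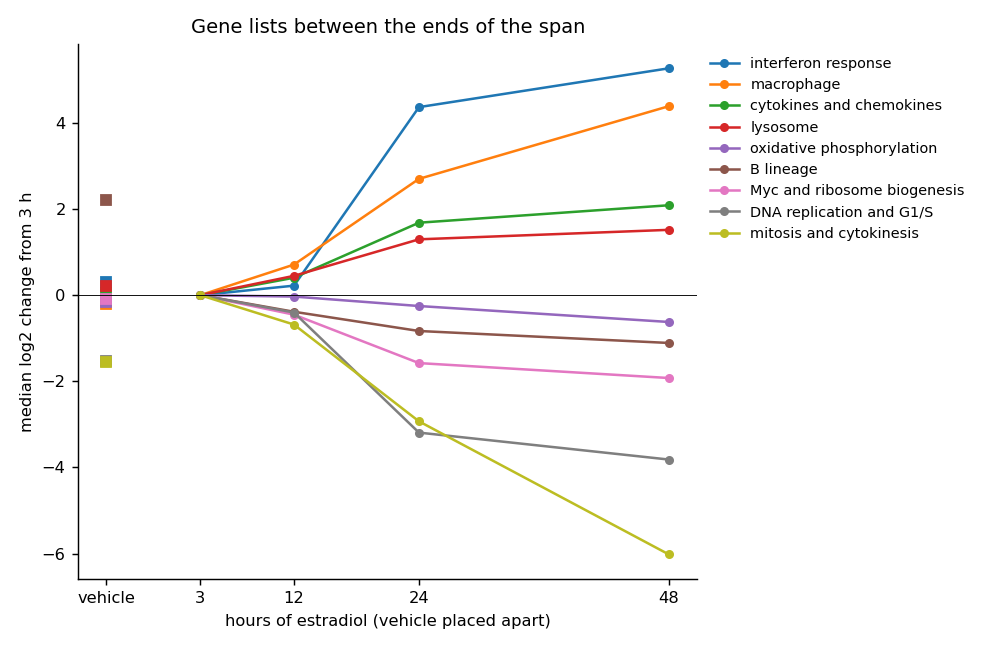
Median log2 change from 3 h of 9 gene lists at 12, 24 and 48 h of estradiol (lines and circles, true time scale) and in vehicle C10 (squares, placed apart at the left). The interferon list stays near 0.22 at 12 h and reaches 4.37 at 24 h, and the mitosis list falls from -2.93 at 24 h to -6.02 at 48 h.

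A second contrast set the mean of 12 h and 24 h against the mean of 3 h and 48 h. A gene that moves early or late in the span gives a nonzero value too, as does an arch or a dip. The contrast called 2186 genes (18.7%) higher and 1281 (11%) lower in mid-course. In 467 and 198 of these all 4 arrays at 12 h and 24 h lay beyond all 4 at the ends, and the genes named here are of that kind. With spike-in scaling the contrast called 150 and 194. Lcn2, the iron-binding lipocalin of neutrophils, had signals of 96.4 and 190 at 3 h, of 1155 and 1254 at 12 h, of 1379 and 1459 at 24 h and of 83.5 and 78.7 at 48 h, a mid-course contrast of 3.64. Its end points did not differ at the threshold (-0.74 ± 0.38, adjusted p = 0.13). Chil1, a chitinase-like protein, showed the same arch at lower signal, from 30.6 and 16 to 190 and 164 at 24 h and the floor of 16 in both arrays at 48 h (2.85). All 4 of its end arrays lay under the filter level, so the size of its contrast depends on the floor and is uncertain. Bhlha15 and Rcan2, of which the first is a factor of secretory cells, were further genes with an arch and no called change between the ends.

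Ifi27, an interferon-inducible gene, ran against the interferon list. Its signals of 1146 and 1211 at 3 h compare with 2920 and 2656 at 24 h and, last, with 133 and 173 at 48 h, a change between the ends of -2.96 ± 0.13 and a mid-course contrast of 2.52. Vehicle C10 stood at 2985 and 3048, so the 24 h signals of Ifi27 did not exceed those of vehicle. Dips were seen too. Cd36, a scavenger receptor of macrophages, had signals of 625 and 598 at 3 h, of 117 and 172 at 12 h, of 222 and 236 at 24 h and of 1317 and 1147 at 48 h, a mid-course contrast of -2.26 and a rise between the ends of 1.01 ± 0.22. Its vehicle signals of 283 and 265 lay below the 3 h arrays. Pde2a, a cyclic nucleotide phosphodiesterase, went from 13171 and 13514 at 3 h to 1187 and 946 at 12 h and back to 5636 and 5942 at 48 h (-1.89). Its vehicle signals were higher than these, at 24468 and 23686. Cdh17, a cadherin, and Emid1 also had their lowest signals at 12 h and recovered in part, with mid-course contrasts of -2.38 and -2.51. Vehicle C10 stood above all estradiol arrays in both, at 1736 and 1877 for Cdh17 and 1655 and 1786 for Emid1. At 12 h both arrays of Cdh17 and of Emid1 lay under the filter level, so the sizes of their contrasts are uncertain.

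**Figure D5:**
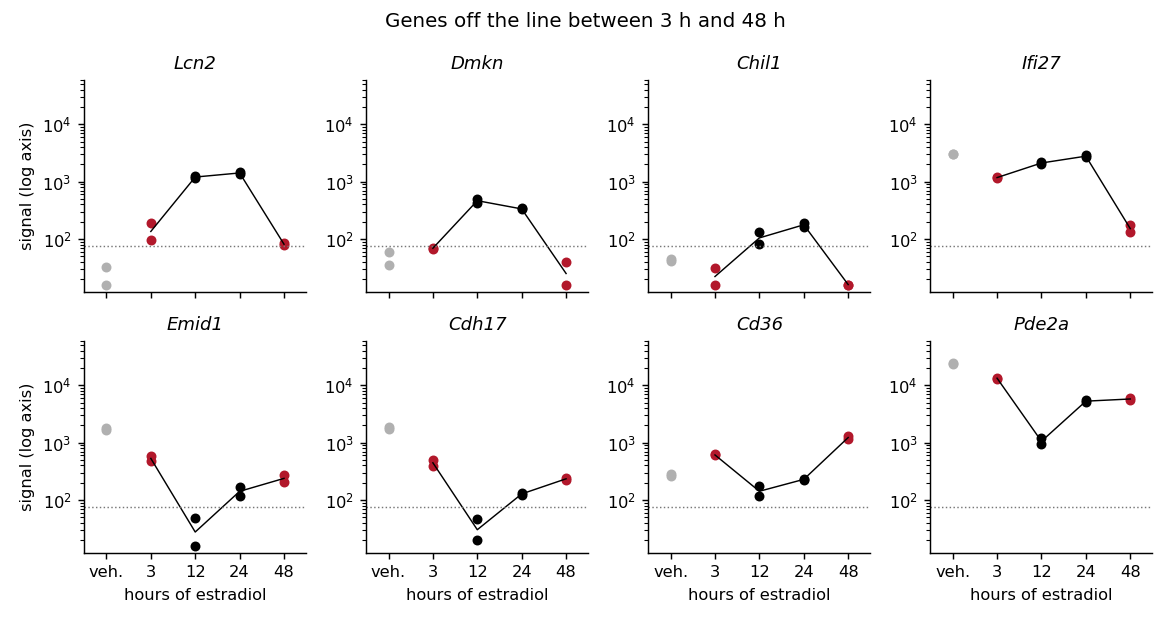
Signal of 8 genes in every C10 array, on a log axis, against hours of estradiol (times evenly spaced, not to scale; "veh." is vehicle C10); red points are the 3 h and 48 h arrays, the line joins group means and the dotted line is the filter level of 74.6. In the upper panels the 12 h and 24 h arrays lie above the ends, as for Lcn2 at 1155 to 1459, and in the lower panels they lie below, as for Cd36 at 117 to 236.

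Most markers of T and NK cells and of mast cells were dim. Of the T and NK cell markers on the array 11 of 15 did not pass the filter, and of the mast cell, basophil and eosinophil markers 8 of 11. The summed signal of the T and NK list ranged from 1399 to 1822 at 3 h and from 1403 to 1975 at 48 h, with the defining markers Cd3d and Gata3 at the floor in all 4 arrays. Most of that sum came from Cd5 (417 and 468 at 3 h, 511 and 672 at 48 h), Cd2 (471 and 513, then 447 and 415) and Zap70 (200.03 and 482, then 95.0 and 577). Of these Cd5 was called higher (0.41 ± 0.14, adjusted p = 0.030), a call lost without the first 3 h array (adjusted p = 0.15), without the second 48 h array (adjusted p = 0.16) and with spike-in scaling (adjusted p = 0.69). That of the mast cell list ranged from 395 to 560 and from 375 to 407, with Mcpt4 and Mcpt8 at the floor in all 4 arrays. The erythroid and megakaryocyte list had 2 of 7 tested higher (28.6%, near the 28.7% of all genes) and 1 lower, and its summed signal went from 3826 and 3834 to 2364 and 2398. The dendritic cell list had 2 of 5 tested higher, and its summed signal of 1272 to 1277 at 3 h became 11875 to 12164 at 48 h, most of it Bst2, which is also interferon-induced, at 11363 and 11663; Ccr7 was at the floor. Of 6 stroma and endothelium markers tested 3 were higher, with a summed signal of 1408 to 1419 at 3 h and 6069 to 6207 at 48 h. They were Fn1, fibronectin, from 54.6 and 74.9 to 1686 and 1654 (4.71 ± 0.51), Acta2, smooth muscle actin, from 242 and 314 to 3391 and 3282 (3.60 ± 0.70), and Kdr, at least 1.12-fold higher, a call lost without the first (adjusted p = 0.062) or second (adjusted p = 0.059) 3 h array or the second 48 h array (adjusted p = 0.095); the part of other cells in these rises was not tested. Stem and progenitor markers numbered 2 higher and 2 lower of 9 (22.2% each), or 2 and 1 with spike-in scaling, with Cd34 at the floor in all 4 arrays. Their summed signal ranged from 41498 to 43401 at 3 h and from 49096 to 51248 at 48 h, most of it Mycn, at 38910 and 37014 and then 43181 and 41155, which was not called (0.15, adjusted p = 0.071). Lmo2 rose by 1.62 ± 0.07, and Sox4 had a change of -1.12 ± 0.11. The other calls were less stable: that of Flt3, at least 1.54-fold higher, was lost without the first 3 h array or either 48 h array (adjusted p from 0.079 to 0.20), and that of Tal1 (-0.51 ± 0.19) without any 1 of the 4 arrays (adjusted p from 0.058 to 0.21).

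Reference genes were called about as often as all genes. Of 12 housekeeping genes tested 3 (25%, against 28.7%) were higher, 5 (41.7%, against 34.6%) were lower and 4 were not called, with a median of 0.00; spike-in scaling called none higher and 3 lower. Hprt, a purine salvage enzyme often used to normalise, went from 11822 and 11896 to 4813 and 4989 (-1.28 ± 0.06), and B2m, the light chain of class I molecules, from 18518 and 19119 to 39865 and 40798 (1.10 ± 0.07, or 0.83 and not called with spike-in scaling). Actb was near constant, at 35530 and 32921 against 39950 and 37616 (0.18 ± 0.07, adjusted p = 0.048), and its sign turned with the mean of its probe sets (-0.47) and with spike-in scaling (-0.0052). Its call was lost without the second 3 h (0.13), the first 48 h (0.14) or the second 48 h array (0.22), and in other alternatives. The native receptor for estradiol had low signals, above the filter level. Esr1 had signals of 277 and 176 at 3 h and of 101 and 116 at 48 h, a change of -1.02 ± 0.26 (adjusted p = 0.010) that did not pass with spike-in scaling (-1.08, adjusted p = 0.087), without the first 3 h array (-0.69, adjusted p = 0.063) or without the first 48 h array (-0.92, adjusted p = 0.055). Of 9 genes of the estrogen response list 4 were higher and 1 was lower, and 1 was higher with spike-in scaling.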

How the data were processed

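RNA extracted with Trizol from 12 samples was biotin-labelled and measured on mouse one-colour arrays, per the labels. Each probe set has a deposited intensity on a linear scale, judged from the range; the authors had scaled these intensities, since the mean after trimming 2% at each end was 500 in all deposited arrays. How probes were summarised, which scaling tool was used and whether probe sets were detected is not given in the sources used here. The 48 h and 3 h arrays of C10 with estradiol were compared, with groups taken from the sample titles.

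Log2 intensities of 45101 probe sets were quantile-normalised, the 64 control probe sets were removed, and a floor of 16 was set, which shrinks the folds of dim genes. Between 21.2% and 24.6% of probe sets per array lay under that floor. Probe sets were named from the platform annotation, with symbols updated by Entrez ID from RefSeq on GRCm38.p6 (34741 of 34945 probe sets with 1 gene matched); 932 listed several genes and 9160 none, and neither kind was used for named genes. A gene took its brightest probe set. The filter level was the median of all values, 6.22 on the log2 scale, in at least 2 arrays. Genes whose probe sets were called in both directions numbered 202.

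Tests used limma (3.58.1) in R (4.3.3), two-sided, fitting 1 mean for each group over all 12 arrays (6 residual degrees of freedom, prior 1.53) and Benjamini-Hochberg adjustment over the 11696 genes at 0.05. The fit was tested on simulated data. Where both arrays of the dimmer group lay under the filter level, the fold is a bound with the fit's adjusted p; where 1 did, the fitted change is given and is uncertain. This held for Ctsk, Fn1, Pax5 and Trem2 at 3 h and for Cox6a2, H2-Aa, Ifi203, Mki67 and Mrc1 at 48 h. Standard errors of genes at the floor in a group rest on the other groups.

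The members of the comparison and the 35 gene lists were chosen with earlier results of these data known, and lists are described by counts and medians, with no test. Named genes were taken from the 15 largest rises and falls with separate arrays, for each list its 4 (or fewer) called members of largest change, members that did not pass or went against the majority of a list where 5 or fewer (elsewhere a few such members were chosen after their values were seen), 8 and 8 mid-course genes, and a fixed set of regulators. Not every gene that these rules gave is named. Motifs were searched on both strands of the 250 bases before each RefSeq gene start. Alternatives changed the scaling, the filter, the floor, the handling of probe sets, the arrays in the fit, the prior, a minimum change and the replicates. The number of arrays limits the precision.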

Additional observations from a re-analysis of the deposited data

How the results depend on the processing

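Calling every probe set on its own gave 7027 higher and 7731 lower, and 6849 and 7621 with no filter, because more features were tested. A required minimum change of 2-fold left 1242 and 1306. Scaling to the spike-in controls gave 1569 and 2290, with 150 higher and 194 lower in mid-course; the cause was not tested. The other alternatives kept each count within 1.5 times its value. The share of calls that were higher ranged from 40.1% to 48.7%, against 45.4%, and the median of all genes was -0.02 without quantile normalisation, -0.18 with median centring and -0.21 with spike-in scaling.

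Leaving out 1 array at a time gave 2937 to 3161 genes higher, 3622 to 3863 lower, and 1662 to 2022 higher and 976 to 1084 lower in mid-course. The replicate block gave 3313, 4010, 2047 and 1178. Same-numbered samples did not deviate together over the genes (correlations from -0.03 to 0.04). Such correlations do not settle whether the numbers pair the samples. 

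Directions turned in 7 cases: Rag1 was 0.42 without the second 48 h array (-0.85 without the first), Kdm6b was -0.031 and Myo5a 0.094 with the mean of probe sets, Actb was -0.0052 with spike-in scaling and -0.47 with the mean of probe sets, the iron and haem median was -0.10 with the mean of probe sets, and the stem and progenitor median was 0.12 without the second 3 h array. Of 3691 values for single genes between the ends, 3507 kept their direction and side of the threshold, 170 lost the call and 9 gained it; for mid-course genes 213 of 219 did and 6 lost it, all for Cep126. Of 664 values for list medians, 511 stayed within the SD of the list's median between duplicates, 151 moved by more and 2 turned. With spike-in scaling 22 list medians moved and 13 did not. A list with no member left at a stricter filter gave no value. Dim signals limit the sizes of 419 rises and 382 falls, which are bounds.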
